A study of Rattus norvegicus with 12 samples.

Results

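Messenger RNA of 9 genes that govern entry into the cell cycle was examined in cultured rat cardiac fibroblasts after depletion of Yap, Wwtr1 or both. The genes are the 3 D cyclins (Ccnd1, Ccnd2, Ccnd3), the Cip/Kip inhibitors of cyclin-dependent kinases (Cdkn1a, Cdkn1b, Cdkn1c), the Ink4 inhibitors Cdkn2b and Cdkn2c, and Mdm2, the ubiquitin ligase that restrains p53. They were picked by symbol from a list of names, not by their values. All 9 were among the 12271 genes of the table and among the 11871 that were tested, for which the mean over all libraries had to reach 10 normalized counts.

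Cells came from the heart ventricles of Sprague Dawley rats at postnatal day 2 and were kept in serum. They received universal negative control siRNAs, siRNAs against Yap, siRNAs against Wwtr1 (also called Taz), or siRNAs against both, which is called the double knockdown here. A small interfering RNA (siRNA) has a matching messenger RNA degraded. There were 3 libraries in each of the 4 groups, 12 in all. Reagents were given at 25 nM apiece. By the labels RNA was taken 48 hours after transfection, whereas the study's methods count 48 hours from a change of medium on the day after transfection, so the time of collection is uncertain. All groups were transfected, and untransfected cells were not analysed here. The siRNA label of the double knockdown libraries names only the Wwtr1 reagents, while their titles name both targets, and the total siRNA dose of that group is not given in the sources used here. According to the study's methods the replicates of a group came from separate litters, so that the spread between libraries includes the spread between cell isolations. These are mixed primary cultures measured in bulk, in which fewer cells of a type and less RNA per cell cannot be told apart.

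D cyclins bind the kinases CDK4 and CDK6. The active complexes phosphorylate the retinoblastoma protein RB, which frees E2F factors to switch on genes of DNA replication. Ink4 inhibitors block CDK4 and CDK6, Cip/Kip inhibitors bind a wider range of cyclin and kinase complexes, and Cdkn1a and Mdm2 are textbook p53 target genes. Yap and Wwtr1 are coactivators that reach DNA mainly through TEAD factors, and they are known for promoting growth of many tissues.

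The libraries were checked first. The design text of the series speaks of myocytes, where its title and the labels say fibroblasts. Totals ran from 33.9 to 41.1 M count units (whole steps of the normalized values). The 9 fibroblast markers (collagen genes, Pdgfra, Tcf21 and others) summed to between 2665789 and 3876026 normalized counts in every library, the 8 cardiomyocyte markers to between 40982 and 88494, and no marker of either list was at 0 throughout a group. Yap1 was 3042, 3776 and 2984 normalized counts in the negative libraries and only 532, 576 and 625 after Yap siRNA. The double knockdown libraries held 713, 739 and 1474. Wwtr1 was 2364, 2565 and 2280.0 in the negative libraries, 524, 550.0 and 637 after Wwtr1 siRNA, and both siRNAs together left 818, 731 and 1056. Wwtr1 was therefore less depleted in the double knockdown than with Wwtr1 siRNA alone (log2 difference 0.59, limma adjusted p = 0.00804), also without double knockdown replicate 3 (0.44, adjusted p = 0.0165). Yap1 in the double knockdown was at 29.9% of the negative mean, or 22.2% without that library, and its difference from Yap siRNA alone did not pass (log2 0.67, limma adjusted p = 0.0623, and 0.33, adjusted p = 0.0581, without it). Replicate 3 of the double knockdown stood apart: its counts differed from the other 2 libraries of its group with a chi-square per gene of 123 and 128, against at most 50.4 for any other pair of replicates. For the double knockdown against negative siRNA, counts and calls of the 9 genes and the lists that change without it are given both ways. Through the shared estimate of the spread, shares of all genes called in other comparisons also moved without it. Against negative siRNA they went from 4.8% to 6.44% after Yap siRNA and from 8.96% to 12% after Wwtr1 siRNA. All 14 interferon-induced genes listed, which answer to foreign RNA among other signals, rose in each of the 3 groups against negative siRNA (4.8%, 8.96% and 32.8% of all genes passed after Yap siRNA, Wwtr1 siRNA and both), although only 4 passed after Yap siRNA without Yap siRNA replicate 1. Their part in the results below was not tested.

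Promoter windows were searched for sites of factors that act on these genes. The windows, from RefSeq on build GRCr8, run from 250 bases before to 50 after the annotated start of 1 transcript a gene, and 6 of the 9 genes had one. Ccnd1, Ccnd2 and Cdkn1c did not. Searched on both strands were the TEAD motif GGAATG, the AP-1 motif TGANTCA, the cyclic AMP response element TGACGTCA, the GC box GGGCGG, the E2F motifs TTTCGCGC and TTTGGCGC, the E-box CACGTG and the interferon-stimulated response element. Ccnd3 held the only TEAD match, on the minus strand 41 bases before the start, and 14.2% of 33469 windows hold this motif. Cdkn2b held the only cyclic AMP response element, 96 bases before the start, where 1.83% of windows hold it. GC boxes were found in 5 of the 6 windows (33.1% of all windows), and the other motifs in none. The parts before the start of the windows with a TEAD or cyclic AMP response element match follow on the gene's strand, with all matches in capitals.
Ccnd3, chr9:20897876-20898125 (minus strand, inside the annotated span of the gene at 20891696 to 20987199): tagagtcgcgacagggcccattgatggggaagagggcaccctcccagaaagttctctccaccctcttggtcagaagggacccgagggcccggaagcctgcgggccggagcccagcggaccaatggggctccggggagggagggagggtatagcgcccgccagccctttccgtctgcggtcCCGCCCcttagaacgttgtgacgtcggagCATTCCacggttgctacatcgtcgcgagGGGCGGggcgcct
Cdkn2b, chr5:109134856-109135105 (minus strand, at the upper end of the annotated span 109123308 to 109134906): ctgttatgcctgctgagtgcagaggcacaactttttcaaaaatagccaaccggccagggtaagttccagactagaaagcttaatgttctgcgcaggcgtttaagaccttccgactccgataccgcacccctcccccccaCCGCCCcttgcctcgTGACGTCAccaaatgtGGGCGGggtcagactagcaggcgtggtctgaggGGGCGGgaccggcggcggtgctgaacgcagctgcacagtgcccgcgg
In the Ccnd3 window CATTCC is the TEAD match read from the other strand and CCGCCC and GGGCGG are GC boxes. In the Cdkn2b window TGACGTCA lies between GC boxes. A match describes the letters of the window and is no measurement of binding.

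Ccnd1, the D cyclin best known as a growth factor responsive gene, rose in every knockdown group. It was 3417, 2748 and 2544 normalized counts in the negative libraries, 4662, 4509.7 and 3879.6 after Yap siRNA, 6339, 5837 and 6256 after Wwtr1 siRNA, and the double knockdown libraries had 4177, 4280.4 and 3752. All 9 knockdown libraries thus lay above all 3 negative libraries, and the 3 Wwtr1 siRNA libraries lay above all others. Groups without overlap were common in the table: against negative siRNA they were found for 26.1% of all genes after Yap siRNA, 32.7% after Wwtr1 siRNA and 44.6% in the double knockdown. They were found for 30.5% between the double knockdown and Yap siRNA, 37.3% between the double knockdown and Wwtr1 siRNA, and 31.9% between the single knockdowns. The group means ± SD (n = 3) were 2903 ± 457, 4350.3 ± 415, 6144 ± 269 and 4069.9 ± 279.9. Against negative siRNA the log2 fold change was 1.09 after Wwtr1 siRNA (SE 0.108, limma adjusted p = 0.000244), which is 2.13-fold. With Yap siRNA it was 0.59 (SE 0.108, limma adjusted p = 0.0128, 1.51-fold), and in the double knockdown it was 0.50 (SE 0.108, limma adjusted p = 0.00442, 1.41-fold). These 3 comparisons share the same negative libraries. The Yap siRNA value lost its call without negative replicate 3 (log2 0.50, limma adjusted p = 0.0595), without Yap siRNA replicate 1 (0.54, adjusted p = 0.0652) and without Yap siRNA replicate 2 (0.56, adjusted p = 0.0601).

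The order of Ccnd1 levels was negative siRNA, double knockdown, Yap siRNA and Wwtr1 siRNA. The double knockdown and Yap siRNA were neighbours whose difference did not pass the test (log2 -0.09, 95% confidence interval -0.33 to 0.14, limma adjusted p = 0.613). Ccnd1 was lower in the double knockdown than with Wwtr1 siRNA alone (log2 -0.60, SE 0.108, limma adjusted p = 0.00322). It was also lower with Yap siRNA than with Wwtr1 siRNA (log2 -0.50, limma adjusted p = 0.0159), a call that was lost without Yap siRNA replicate 3 (log2 -0.42, adjusted p = 0.0539), Wwtr1 siRNA replicate 1 (-0.48, adjusted p = 0.0521) or Wwtr1 siRNA replicate 3 (-0.49, adjusted p = 0.0554). Wwtr1 siRNA therefore went with a rise of 1.09 on the log2 scale when given alone and with a difference of -0.09 when given beside Yap siRNA. The interaction, the excess of the double knockdown over the added single effects on the log2 scale, was -1.19 (SE 0.153, 95% confidence interval -1.52 to -0.85, limma adjusted p = 0.00524). By p-value Ccnd1 ranked 12 of 11871 genes in this test, which 1.03% of all genes passed. That share was between 0.261% and 0.665% when any 1 library was left out other than Yap siRNA replicate 1 and double knockdown replicates 1 and 3. No other of the 9 genes passed the interaction test.

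**Figure D1:**
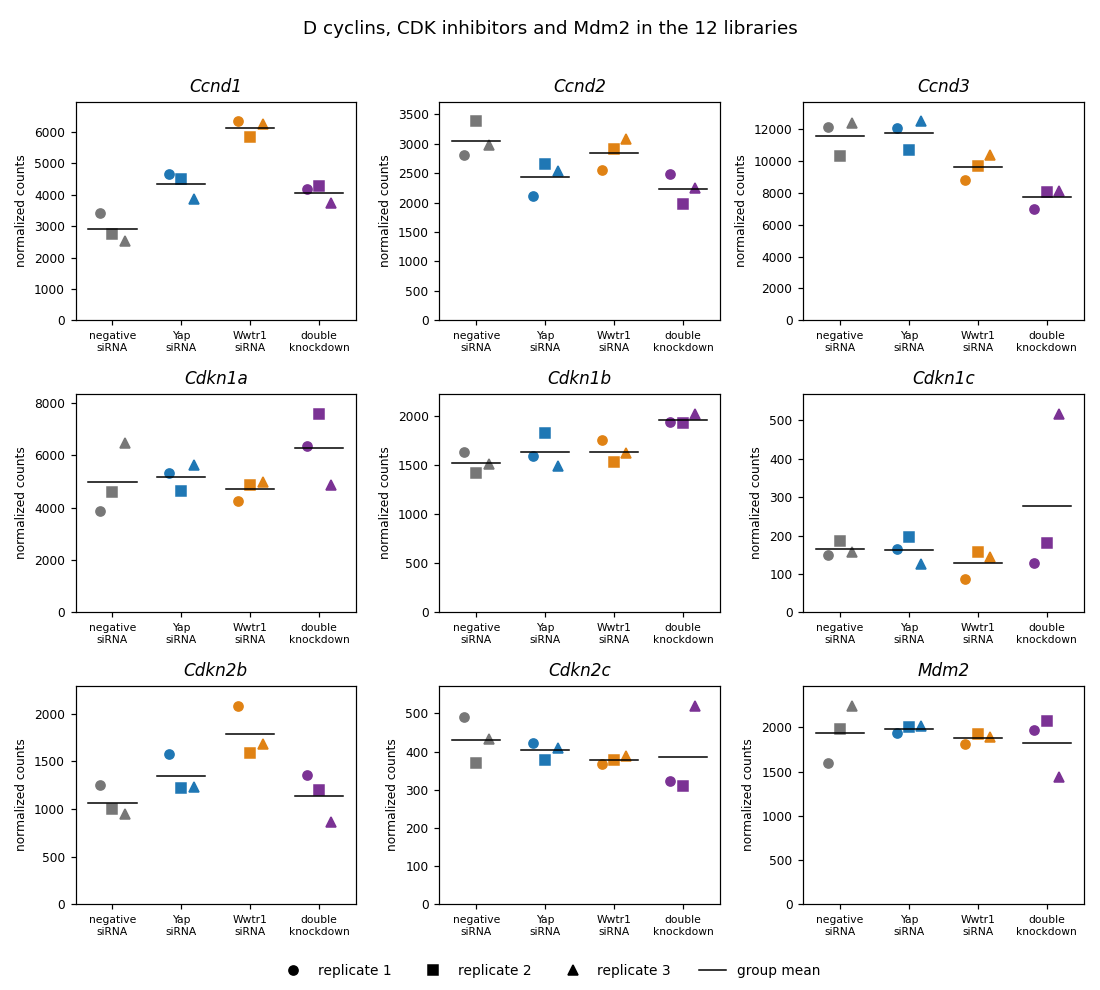
Normalized counts (vertical axes, each from 0) of the 9 genes in the 12 libraries, by siRNA group; each symbol is 1 library, its shape gives the replicate number, and the line is the group mean of 3 libraries. Ccnd1 is highest in the 3 Wwtr1 siRNA libraries (5837 to 6339), Ccnd3 is lowest in the double knockdown (6989.7 to 8091), and double knockdown replicate 3 lies apart from its group for Cdkn1c (518) and Cdkn2c (520.4).

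The other D cyclins, Ccnd2 and Ccnd3, fell in the double knockdown, where Ccnd1 rose. Ccnd3 was 12125, 10296 and 12389 normalized counts in the negative libraries and 12078, 10703 and 12490.3 after Yap siRNA. It was 8839.9, 9675 and 10411 after Wwtr1 siRNA, and the double knockdown libraries had 6989.7, 8078 and 8091. The double knockdown libraries lay below those of every other group, while negative and Yap siRNA libraries overlapped. Ccnd3 fell in the double knockdown against negative siRNA (log2 -0.59, SE 0.097, limma adjusted p = 0.000831), to 66.5% of the negative mean. It was lower there than with Yap siRNA alone (log2 -0.61, SE 0.097, limma adjusted p = 0.00226). The difference from Wwtr1 siRNA alone was smaller (log2 -0.32, SE 0.097, limma adjusted p = 0.037). That last call was lost without Wwtr1 siRNA replicate 2 (log2 -0.32, limma adjusted p = 0.0974) or 3 (-0.26, adjusted p = 0.14) and without double knockdown replicate 1 (-0.25, adjusted p = 0.124) or 2 (-0.36, adjusted p = 0.0534), and also in fits with no mean-variance trend (adjusted p = 0.0641) or on the compared groups alone (adjusted p = 0.0578). With Wwtr1 siRNA alone the value against negative siRNA was -0.27 (SE 0.097, limma adjusted p = 0.118), and with Yap siRNA alone it was 0.02 (95% confidence interval -0.19 to 0.23). When same-numbered libraries of the negative, Yap and Wwtr1 siRNA groups were treated as pairs (a replicate block), Ccnd3 passed with Wwtr1 siRNA (log2 -0.27, limma adjusted p = 0.0188) and was higher with Yap than with Wwtr1 siRNA (log2 0.29, limma adjusted p = 0.013).

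Ccnd2 was 2808, 3379.6 and 2975 normalized counts in the negative libraries, 2117, 2659 and 2535 after Yap siRNA, 2553, 2919.6 and 3082 after Wwtr1 siRNA, and the double knockdown libraries had 2488, 1978 and 2251. The libraries of both groups given Yap siRNA lay below all negative libraries, and those given Wwtr1 siRNA alone overlapped with them. Ccnd2 fell in the double knockdown (log2 -0.45, SE 0.116, limma adjusted p = 0.0112), to 73.3% of the negative mean. With Yap siRNA alone the log2 difference was -0.33 (SE 0.116, limma adjusted p = 0.138). It passed in the fit with the replicate block (limma adjusted p = 0.00751). Against Wwtr1 siRNA alone the double knockdown value was -0.35 (limma adjusted p = 0.0522), which passed the threshold without Yap siRNA replicate 1 (log2 -0.35, adjusted p = 0.039), Wwtr1 siRNA replicate 1 (-0.43, adjusted p = 0.0386) or double knockdown replicate 1 (-0.43, adjusted p = 0.0387).

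The balance between D cyclins can be followed as a log2 ratio within each library, whose shift between libraries does not depend on gene length although its level does. The log2 ratio of Ccnd1 to Ccnd3 counts ran from -2.28 to -1.83 in the negative libraries, from -1.69 to -1.25 after Yap siRNA, from -0.73 to -0.48 after Wwtr1 siRNA and from -1.11 to -0.74 in the double knockdown. None of these 4 ranges overlapped, although those of Wwtr1 siRNA and the double knockdown adjoined each other. The ratio of Ccnd1 to Ccnd2 ran from -0.30 to 0.28 in the negative libraries and from 0.61 to 1.31 in all knockdown libraries. By contrast the ratio of Ccnd2 to Ccnd3 overlapped, from -2.11 to -1.61 in the negative libraries and from -2.03 to -1.49 in the double knockdown. These ratios are given as a description, without a test.

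The Ink4 inhibitor gene Cdkn2b, known to be induced by TGF-beta, had a pattern close to that of Ccnd1. Cdkn2b was 1254, 998 and 953 normalized counts in the negative libraries and 1578, 1222 and 1234 after Yap siRNA. It was 2085, 1591 and 1686 after Wwtr1 siRNA, and the double knockdown libraries had 1357, 1197 and 868. The Wwtr1 siRNA libraries were above those of every other group, and double knockdown libraries overlapped with the negative ones. Cdkn2b rose with Wwtr1 siRNA (log2 0.74, SE 0.175, limma adjusted p = 0.0212, 1.67-fold). This call was lost without negative replicate 2 (log2 0.70, limma adjusted p = 0.0709), negative replicate 3 (0.67, adjusted p = 0.087) or Wwtr1 siRNA replicate 1 (0.63, adjusted p = 0.0938). In the double knockdown the value was 0.08 (95% confidence interval -0.30 to 0.46), and it was -0.06 without double knockdown replicate 1 and 0.27 (limma adjusted p = 0.216) without double knockdown replicate 3. Cdkn2b was lower in the double knockdown than with Wwtr1 siRNA alone (log2 -0.66, SE 0.175, limma adjusted p = 0.0208), which did not pass without Wwtr1 siRNA replicate 1 (log2 -0.55, adjusted p = 0.0714), Wwtr1 siRNA replicate 3 (-0.70, adjusted p = 0.0505) or double knockdown replicate 3 (-0.48, adjusted p = 0.0548). With Yap siRNA the value was 0.33 (SE 0.175, limma adjusted p = 0.324), and it passed in the fit with the replicate block (limma adjusted p = 0.0077). In that fit Cdkn2b was also lower with Yap than with Wwtr1 siRNA (log2 -0.41, limma adjusted p = 0.00199). The interaction was -0.99 (SE 0.247, limma adjusted p = 0.0786) and missed the threshold. It passed with a replicate block over all 12 libraries (limma adjusted p = 0.0108), although it is not known whether the double knockdown libraries pair with the others.

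**Figure D2:**
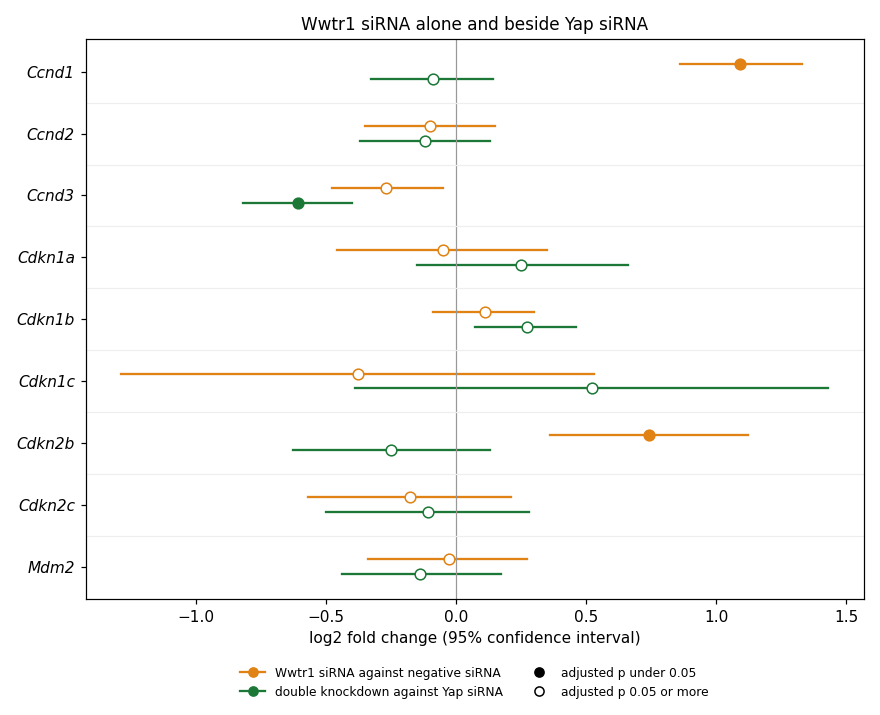
Log2 fold change (horizontal axis, with 95% confidence interval) of each gene for Wwtr1 siRNA against negative siRNA and for the double knockdown against Yap siRNA, which both differ by Wwtr1 siRNA; filled circles passed an adjusted p of 0.05. Ccnd1 (1.09 and -0.09) and Cdkn2b (0.74 and -0.25) lie to the right of 0 for Wwtr1 siRNA alone and left of it beside Yap siRNA, with intervals that do not overlap, while the intervals of the other 7 genes overlap.

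Cdkn2c, the other Ink4 inhibitor, was 489.5, 369.8 and 434 normalized counts in the negative libraries, 422, 379 and 409.5 after Yap siRNA, 368, 379 and 387 after Wwtr1 siRNA, and the double knockdown libraries had 324, 310.2 and 520.4. The third double knockdown library was the highest of all 12 and both others were the lowest. The log2 fold change against negative siRNA was -0.19 (SE 0.179, limma adjusted p = 0.436) with that library and -0.43 (SE 0.132, limma adjusted p = 0.0255) without it.

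Among the Cip/Kip inhibitors Cdkn1b, which encodes p27 and holds back cyclin E and CDK2 complexes, rose in the double knockdown. Its counts were 1633, 1413 and 1504 in the negative libraries, 1593, 1825 and 1487 after Yap siRNA, 1749, 1531 and 1624 after Wwtr1 siRNA, and the double knockdown libraries had 1930.4, 1927 and 2022. The double knockdown libraries were above those of all other groups and close to each other, at 1959.9 ± 53.6 (SD, n = 3). Against negative siRNA its log2 difference was 0.37 (SE 0.090, limma adjusted p = 0.00788, 1.29-fold), and it kept its call with each library left out in turn (adjusted p at most 0.0342). Against Yap siRNA alone the value was 0.27 (limma adjusted p = 0.0706) and against Wwtr1 siRNA alone 0.26 (limma adjusted p = 0.0582). Both single knockdowns gave 0.11 with a 95% confidence interval from -0.09 to 0.30.

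Cdkn1a, which encodes p21 and is the classical p53 target among these inhibitors, overlapped between all 4 groups. It was 3858, 4589 and 6484 normalized counts in the negative libraries, 5311, 4625 and 5629 after Yap siRNA, 4242, 4885 and 4980.2 after Wwtr1 siRNA, and the double knockdown libraries had 6340.3, 7601 and 4862. Negative replicate 3 exceeded 2 of the 3 double knockdown libraries. The log2 difference in the double knockdown was 0.34 (SE 0.186, 95% confidence interval -0.06 to 0.75, limma adjusted p = 0.179). It passed without negative replicate 3 (log2 0.55, limma adjusted p = 0.0348) and without double knockdown replicate 3 (0.51, limma adjusted p = 0.0444).

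Cdkn1c, an imprinted gene that encodes p57, had few counts and the largest standard errors of the 9 genes. It was 149.8, 186 and 158 normalized counts in the negative libraries, 166, 197 and 125 after Yap siRNA, 87.6, 156 and 144 after Wwtr1 siRNA, and the double knockdown libraries had 129, 181 and 518. The value of 518 came from double knockdown replicate 3, and the other 11 libraries did not exceed 197. The log2 fold change against negative siRNA was 0.48 (SE 0.418, limma adjusted p = 0.405) with this library and -0.10 (SE 0.282, limma adjusted p = 0.812) without it. In the same library 7 of 9 macrophage markers were at their highest level of all 12 libraries. Csf1r, the macrophage growth factor receptor, was 786, 1801 and 6407 in the double knockdown libraries and between 1568 and 4392 elsewhere, and Ptprc was 268, 484 and 1482. Summed over the list, the macrophage markers ran from 12379 to 18051 with negative siRNA, from 10902.5 to 16769 after Yap siRNA, from 7552 to 11332.5 after Wwtr1 siRNA and from 4425 to 28012.5 in the double knockdown, and none was at 0 throughout a group. In the double knockdown 1 of the 9 markers passed against negative siRNA (lower, median of the list -0.81), which is 11.1% beside 32.8% of all genes. Without replicate 3 there were 8, all lower (median -1.59), where 34.2% of all genes passed. Across the 12 libraries the genes closest to Cdkn1c were the leukocyte genes Il2rg and Themis2 and the semaphorin gene Sema6b, which were chosen after their values were seen. Their centred log2 values differed from those of Cdkn1c by a root mean square of 0.207, 0.241 and 0.252. The part of macrophage RNA in the Cdkn1c and Cdkn2c values was not tested. Of 8 genes of the imprinted domain around Cdkn1c, 2 passed in the double knockdown, which is 25% beside 32.8% of all genes. Without double knockdown replicate 3 there were 2, both lower. Tssc4 fell (log2 -0.44, limma adjusted p = 0.00727), and Slc22a18 rose (log2 0.56, limma adjusted p = 0.0474), a call that was lost in 9 of 12 fits with a library left out, all but those without negative replicate 3 or Yap siRNA replicate 1 or 2 (adjusted p from 0.056 to 0.177). In 8 of those 9 fits, all but the one without double knockdown replicate 3, 1 gene of the list passed.

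Mdm2 was 1594, 1980.2 and 2248 normalized counts in the negative libraries, 1934, 2004 and 2012 after Yap siRNA, 1810.3, 1931 and 1897 after Wwtr1 siRNA, and the double knockdown libraries had 1968, 2069 and 1438. The range of the negative libraries covered 11 of the 12 libraries, with only double knockdown replicate 3 below it. No comparison passed the test. The 95% confidence intervals against negative siRNA ran from -0.26 to 0.35 after Yap siRNA, from -0.34 to 0.27 after Wwtr1 siRNA and from -0.40 to 0.21 in the double knockdown. The log2 ratio of Cdkn1a to Mdm2 counts within a library ran from 1.69 to 1.88 in the double knockdown and from 1.21 to 1.53 in the other 9 libraries. By contrast the ratio of Cdkn1a to Cdkn1b overlapped, from 1.27 to 1.98 in the double knockdown and from 1.24 to 2.11 in the negative libraries. Both are given as a description without a test, and how often ratios of other gene pairs separate was not computed.

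Counted over the 9 genes, 1 passed with Yap siRNA (Ccnd1), where 4.8% of all genes passed, and 2 passed with Wwtr1 siRNA (Ccnd1 and Cdkn2b), where 8.96% did. These shares rest on single libraries: after Yap siRNA it was 0.935% to 2.87% without any 1 of the negative libraries, Yap siRNA replicate 1 or 2 or Wwtr1 siRNA replicate 2, and after Wwtr1 siRNA 4.62% to 5.85% without negative replicate 2 or 3 or Wwtr1 siRNA replicate 1 or 2. In the double knockdown 4 passed (Ccnd1 and Cdkn1b up, Ccnd2 and Ccnd3 down), against 32.8% of all genes (17.1% of all genes rose and 15.6% fell). Without double knockdown replicate 3, 6 of the 9 genes passed (Cdkn1a up and Cdkn2c down in addition), against 34.2% of all genes. One gene, Ccnd3, passed between the double knockdown and Yap siRNA (13.8% of all genes), 3 passed between the double knockdown and Wwtr1 siRNA (Ccnd1, Ccnd3 and Cdkn2b, all lower; 19.9% of all genes), and Ccnd1 alone passed between Yap and Wwtr1 siRNA (8.79% of all genes). The first share was 6.39% to 8.95% without Yap siRNA replicate 3 or double knockdown replicate 1, the second 10.8% to 12.3% without Wwtr1 siRNA replicate 2 or 3, and the third 3.66% to 5.64% without any 1 of the Wwtr1 siRNA libraries or Yap siRNA replicate 1 or 2. A replicate block was also fitted over the 3 groups whose numbers were taken to pair. There 3 genes passed with Yap siRNA (Ccnd1, Ccnd2 and Cdkn2b, beside 16% of all genes). After Wwtr1 siRNA 3 passed (Ccnd1, Ccnd3 and Cdkn2b, beside 21.3%), and 4 between Yap and Wwtr1 siRNA (all 3 D cyclins and Cdkn2b, beside 22.6%). The same 9 libraries without the block gave 1, 2 and 1 genes. The median log2 fold change of the 9 genes against negative siRNA was 0.05, -0.05 and 0.08 after Yap siRNA, Wwtr1 siRNA and both, beside -0.004, 0.005 and 0.004 over all genes.

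**Figure D3:**
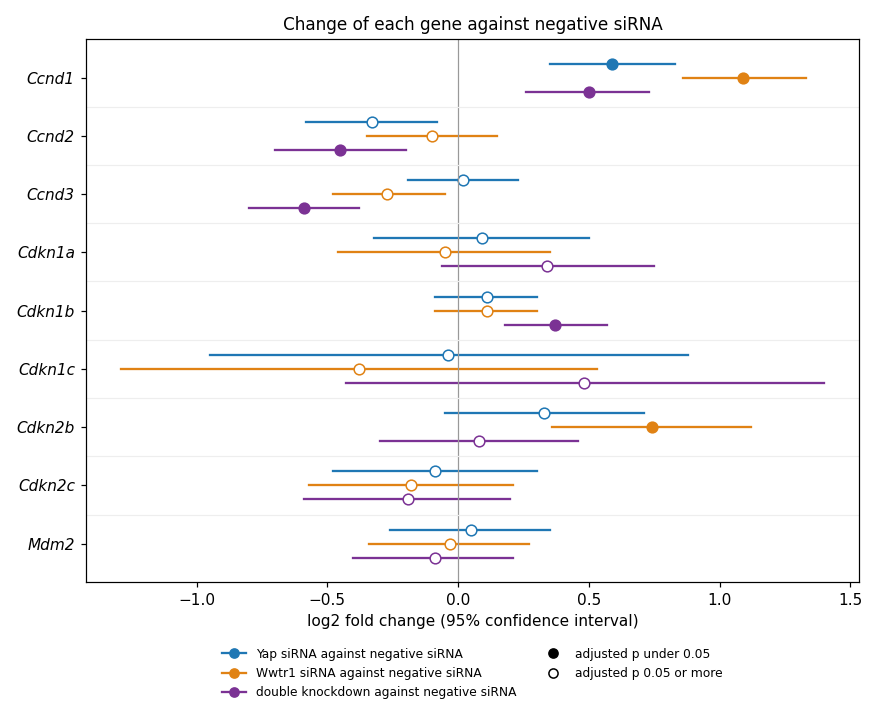
Log2 fold change (horizontal axis, with 95% confidence interval) of each of the 9 genes against the 3 negative siRNA libraries in the Yap siRNA, Wwtr1 siRNA and double knockdown groups; filled circles passed an adjusted p of 0.05. Ccnd1 is the only gene filled in all 3 groups (0.59, 1.09 and 0.50), and Ccnd2 (-0.45), Ccnd3 (-0.59) and Cdkn1b (0.37) are filled only in the double knockdown; differences between the groups were tested separately.

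Markers of several cell types also passed in the double knockdown, where 32.8% of all genes did (17.1% rose and 15.6% fell). Of 9 fibroblast markers 7 passed (77.8%), with 4 higher (among them Dcn, log2 2.01, limma adjusted p = 0.00211) and 3 lower (among them Vim, log2 -0.74, limma adjusted p = 0.00042). Without double knockdown replicate 3 the value of Dcn was 1.5 (limma adjusted p = 0.00182). Of 8 cardiomyocyte markers 3 rose (37.5%), and their sum ran from 40982 to 71336 normalized counts with negative siRNA and from 66352 to 88494 in the double knockdown. Myh6, a cardiac myosin heavy chain, had the largest rise of that list (log2 1.83, limma adjusted p = 0.00206). Only 1 of the 8 passed without negative replicate 3, double knockdown replicate 2 or double knockdown replicate 3. Of 7 endothelial markers 4 rose (57.1%), with sums from 900.2 to 1138 with negative siRNA and from 1467 to 1795 in the double knockdown, and 2 passed without double knockdown replicate 3. No marker of these lists was at 0 throughout a group. The part of changed cell composition in the values of the 9 genes was not tested.

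Genes with the most similar pattern over the 12 libraries were looked up among 10101 genes, those averaging 100 normalized counts or more. Likeness was measured as the root mean square difference of log2 values centred on each gene's mean. Closest to Ccnd1 was Slc8a1, the sodium and calcium exchanger (0.153), followed by Cdkn2b itself (0.21) and Trappc3 (0.214), where Ccnd1 varied around its own mean by 0.405. For Cdkn2b the closest was again Slc8a1 (0.197), followed by Crym (0.204) and Spats2l (0.206). Ccnd2 was closest to the importin genes Kpnb1 (0.0685) and Kpna1 (0.0766) and to LOC361346 (0.0837), Ccnd3 to Anxa5 (0.0862) and the translation genes Rps21 (0.091) and Eef1b2 (0.097), and Cdkn1b to LOC294154 (0.0696), Smg6 (0.07) and Atf7ip (0.0737).

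The partners of these genes were followed in lists. Of 14 tested genes for kinases, other cyclins and their cofactors, none passed with Yap siRNA, 2 passed with Wwtr1 siRNA (both lower) and 8 in the double knockdown (7 lower, 1 higher), with median log2 fold changes of -0.16, -0.22 and -0.30. The 8 genes are 57.1% of the list, beside 32.8% of all genes in that comparison, and they became 5 without negative replicate 1, negative replicate 3 or double knockdown replicate 1. After Wwtr1 siRNA the 2 genes are 14.3%, beside 8.96% of all genes, and 1 gene passed without negative replicate 1 or Wwtr1 siRNA replicate 1 or 2. After Yap siRNA 1 gene passed without Yap siRNA replicate 3 or double knockdown replicate 3. Skp2, which marks Cdkn1b protein for destruction, was 468, 432 and 597 normalized counts in the negative libraries and 258, 352 and 257 in the double knockdown, and it fell (log2 -0.79, limma adjusted p = 0.00954). Its cofactor Cks1b fell from 2302, 2185 and 2296 to 1174, 1483 and 1609 (log2 -0.68, limma adjusted p = 0.000737). For either gene the libraries of both groups did not overlap, as for 44.6% of all genes. Ccna2, the cyclin of S phase, fell as well (log2 -0.64, limma adjusted p = 0.00754). So did the phosphatase gene Cdkn3 (log2 -0.70, limma adjusted p = 0.0225), which lost its call without negative replicate 1 (adjusted p = 0.0638), negative replicate 3 (adjusted p = 0.0707) or double knockdown replicate 1 (adjusted p = 0.0746). Without double knockdown replicate 3, 12 of the 14 passed, beside 34.2% of all genes.

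Of 10 RB and E2F genes, none passed with either single siRNA and 3 passed in the double knockdown (1 higher, 2 lower), a share of 30% beside 32.8% of all genes. There were 6 (1 higher, 5 lower) without double knockdown replicate 3, and 1 without negative replicate 3 or double knockdown replicate 1. E2f6, a repressor of the family, fell (log2 -0.63, limma adjusted p = 0.000308). Rbl2, an RB relative found in resting cells, rose (log2 0.40, limma adjusted p = 0.0147), and lost its call without negative replicate 3 (adjusted p = 0.0619) or double knockdown replicate 1 (adjusted p = 0.0556). E2f1 fell (log2 -0.58, limma adjusted p = 0.0389), a call lost without any 1 of the negative libraries, Yap siRNA replicate 2, Wwtr1 siRNA replicate 2 or double knockdown replicate 1 or 2 (adjusted p from 0.0516 to 0.131). Of 22 S phase and mitosis genes, none passed with Yap siRNA, 2 after Wwtr1 siRNA and 12 in the double knockdown, all of them lower, with medians of -0.27, -0.38 and -0.51. The 12 genes are 54.5% of the list, where 15.6% of all genes fell, and the 2 genes are 9.09%, where 8.96% of all genes passed. The 12 became 3 to 7 without any 1 of the negative libraries or double knockdown replicate 1 or 2. After Wwtr1 siRNA the 2 genes became 1 without any 1 of the negative libraries or Wwtr1 siRNA replicate 1 or 2, 4 without Wwtr1 siRNA replicate 3, and 10 without double knockdown replicate 3, which enters that comparison through the shared estimate of the spread. Among the 12 genes that fell in the double knockdown was Cdc6, which loads the replicative helicase (log2 -0.94, limma adjusted p = 0.0288). The helicase subunit Mcm5 (-0.65, adjusted p = 0.0393) and the mitotic genes Ccnb1 (-0.62, adjusted p = 0.0231) and Cdk1 (-0.61, adjusted p = 0.0122) were others. Mcm5 lost its call without the same libraries as E2f1 (adjusted p from 0.0519 to 0.145). Cdc6 lost it without any 1 of the negative libraries or double knockdown replicate 1 or 2 (adjusted p from 0.0573 to 0.11), Ccnb1 without negative replicate 1 or 3 or double knockdown replicate 1 or 2 (adjusted p from 0.0564 to 0.0893), and Cdk1 without negative replicate 3 (adjusted p = 0.0562). Without double knockdown replicate 3, 19 of the 22 genes passed, all lower.

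Beside Cdkn1a and Mdm2, 22 further p53 response genes were tested. With Yap siRNA none passed, with Wwtr1 siRNA 3 did (2 higher, 1 lower), and in the double knockdown 9 did (4 higher, 5 lower), with medians of -0.14, -0.02 and -0.12. In the double knockdown this is 40.9% of the list beside 32.8% of all genes, and 8 passed without replicate 3 (3 higher, 5 lower). After Wwtr1 siRNA it is 13.6% beside 8.96%, and none passed without negative replicate 2 or 3 and 1 without Wwtr1 siRNA replicate 1 or 2. After Yap siRNA 1 gene passed without Yap siRNA replicate 3 or double knockdown replicate 3. Gadd45a, a growth arrest and DNA damage gene, was 756, 664 and 582 normalized counts in the negative libraries, and 1461, 1089.5 and 1242 in the double knockdown. It rose there (log2 0.92, limma adjusted p = 0.00304) and with Wwtr1 siRNA (log2 0.71, limma adjusted p = 0.036). Btg2, an antiproliferative gene, rose in the same groups (log2 0.91, limma adjusted p = 0.000264, and 0.53, adjusted p = 0.0213). After Wwtr1 siRNA Gadd45a lost its call without negative replicate 2 or 3 or Wwtr1 siRNA replicate 1 or 2 (adjusted p from 0.0872 to 0.141), and Btg2 without negative replicate 2 or 3 or Wwtr1 siRNA replicate 3 (adjusted p from 0.0697 to 0.0797). Plk2 fell in the double knockdown, from 5037, 6623 and 5406 to 1781, 2103 and 2561 (log2 -1.41, limma adjusted p = 8.87e-05). Perp rose from a low level (log2 1.16, limma adjusted p = 0.0457), and lost its call without any 1 of the negative libraries, Yap siRNA replicate 2, Wwtr1 siRNA replicate 1 or double knockdown replicate 2 or 3 (adjusted p from 0.0501 to 0.144). Genes of this list thus went in both directions, as did the share of all genes called higher and lower.

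Of 25 genes for factors known to control D cyclin or inhibitor genes, 3 passed with Yap siRNA (2 higher, 1 lower), 6 after Wwtr1 siRNA (1 higher, 5 lower) and 12 in the double knockdown (8 higher, 4 lower). These are 12%, 24% and 48% of the list, beside 4.8%, 8.96% and 32.8% of all genes. After Yap siRNA none passed without negative replicate 3 or Yap siRNA replicate 1, 1 passed without negative replicate 1, Yap siRNA replicate 2, Wwtr1 siRNA replicate 2 or double knockdown replicate 2, and 5 passed without Yap siRNA replicate 3 or double knockdown replicate 3. After Wwtr1 siRNA 3 passed without negative replicate 2 or Wwtr1 siRNA replicate 2. In the double knockdown 13 passed (8 higher, 5 lower) without its replicate 3. Foxo3, which is known to switch on Cdkn1b and to repress D cyclin genes, was 1325, 1589 and 1039.8 normalized counts in the negative libraries, 2197, 2441 and 1699.9 after Yap siRNA, 1553, 1519.5 and 1418 after Wwtr1 siRNA, while the double knockdown libraries had 4404, 2894 and 3242. It rose in the double knockdown (log2 1.41, SE 0.182, limma adjusted p = 0.000165), and with Yap siRNA its value was 0.69 (limma adjusted p = 0.0539). Ets1 fell in all 3 groups (log2 -0.59, -0.79 and -1.43, limma adjusted p = 0.0364, 0.00492 and 3.2e-05), and Ets2 rose in the double knockdown (log2 1.17, limma adjusted p = 3.7e-05). After Yap siRNA the Ets1 call was lost without negative replicate 2 or 3, Yap siRNA replicate 1 or 2, Wwtr1 siRNA replicate 2 or double knockdown replicate 2 (adjusted p from 0.0501 to 0.145). Named after their values were seen are Smad3, a TGF-beta factor, which rose in all 3 groups (log2 0.34, 0.69 and 0.66 after Yap siRNA, Wwtr1 siRNA and both, limma adjusted p = 0.0329, 0.000655 and 9.38e-05), and Myc, which fell in the double knockdown (log2 -0.64, limma adjusted p = 0.00434). The Smad3 call after Yap siRNA was lost without negative replicate 1 or 3 or Yap siRNA replicate 1 or 3 (adjusted p from 0.0809 to 0.129). No cause of the changes of the 9 genes was tested.

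**Figure D4:**
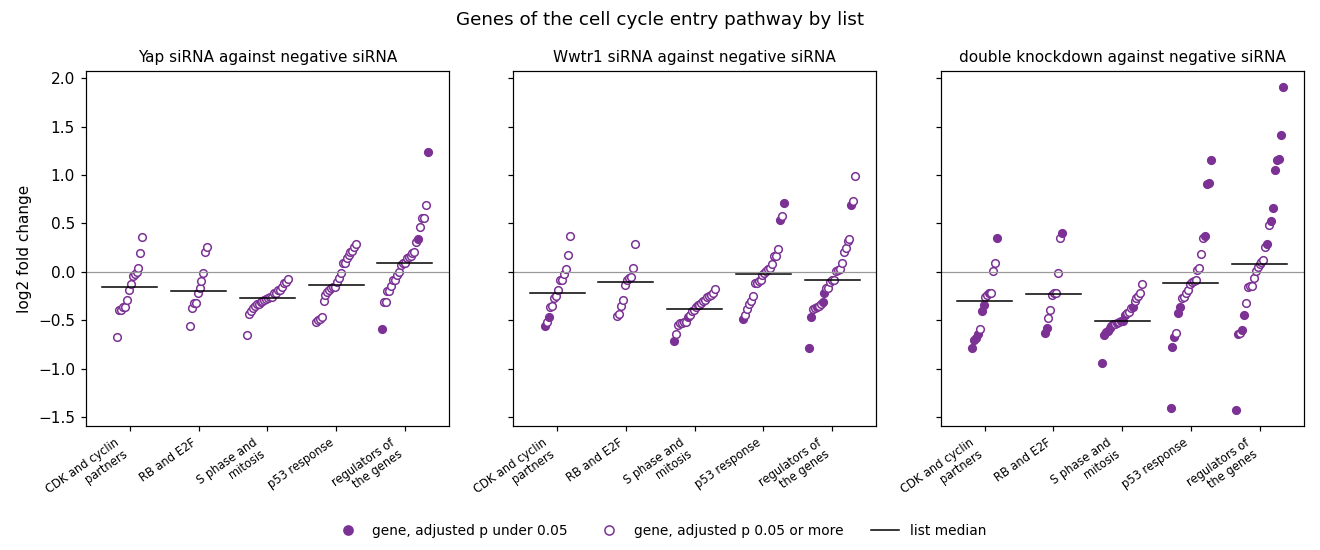
Log2 fold change (vertical axis) of every tested gene of 5 lists in the Yap siRNA, Wwtr1 siRNA and double knockdown groups against negative siRNA; each circle is 1 gene, filled where it passed an adjusted p of 0.05, genes are ordered by value within a list, and the line is the list median. In the double knockdown the S phase and mitosis list holds 12 filled circles, all below 0, while p53 response genes (4 above, 5 below) and regulators (8 above, 4 below) are filled on both sides.

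The levels of established Yap targets and of interferon-induced genes are given for the same libraries. Of 12 tested Yap targets, 8 fell with Yap siRNA, 1 after Wwtr1 siRNA and 9 in the double knockdown, which are 66.7%, 8.33% and 75% of the list, beside 4.8%, 8.96% and 32.8% of all genes. The share after Wwtr1 siRNA is thus near that of all genes. After Yap siRNA the count was 2 to 4 without any 1 of the negative libraries, Yap siRNA replicate 1 or 2 or Wwtr1 siRNA replicate 2, and after Wwtr1 siRNA it was 2 without Wwtr1 siRNA replicate 3 or double knockdown replicate 3. Ccn2 (log2 -1.85), Amotl2 (-1.72), Ankrd1 (-1.64) and Ccn1 (-1.63) had the largest falls of the list in the double knockdown. The interferon-induced genes summed to between 6880.4 and 12327 normalized counts in the negative libraries, 32339.7 and 85807 after Yap siRNA, 26863 and 115099 after Wwtr1 siRNA, and both siRNAs gave 118987 to 155531. Their 4 largest changes in the double knockdown were those of Oas2, Mx1, Mx2 and Rsad2.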

How the data were processed

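RNA was sequenced from 12 cultures of neonatal rat cardiac fibroblasts, grouped by their titles. The authors trimmed reads with Trim Galore 0.6.5, aligned them to build rn6 with HISAT2, quantified genes with StringTie and divided counts by DESeq2 size factors. The deposited signal values are these normalized counts, and all of them came out as whole multiples of 1 step per library (100% within 0.01 of a step). Whether a step is a read or a mate, and whether counting used the strand, is not given in the sources used here, so depth can be compared between libraries but not read as molecules. Deposited tables of the authors' fold changes and p-values against negative siRNA were not used.

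Values were tested as log2(normalized count + 1) with limma 3.58.1 in R 4.3.3, in a single fit of the 4 groups with a mean-variance trend and no covariate. This scale understates fold changes of low genes. P-values are two-sided and adjusted by the Benjamini-Hochberg method over the 11871 genes that passed the minimum mean of 10, with a threshold of 0.05. The pairs of groups and the interaction were contrasts of this fit. The script was tested on simulated data. The 9 genes, the gene lists and the tests were chosen with earlier results of these data known. Genes named from a pathway list were up to 4 with the largest change among those called in the double knockdown against negative siRNA, provided that they averaged 100 normalized counts. For each of the 9 genes that averaged at least 100 and passed in some comparison (Ccnd1, Ccnd2, Ccnd3, Cdkn1b and Cdkn2b), the 3 nearest genes were named.

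Since replicates came from separate litters, it was checked whether libraries with the same number deviate together. The 9 correlations of their deviations from group means among the negative, Yap and Wwtr1 siRNA groups ran from 0.104 to 0.276, and these numbers were taken to pair libraries. Correlations with the double knockdown ran from -0.127 to 0.18, and those with the Wwtr1 siRNA group were 0.18, 0.0678 and 0.0878. These ranges overlap, and libraries of unlike number were not compared. The double knockdown was not taken to pair, and whether it does is not known. No replicates agreed within sampling noise (chi-square per gene at least 20.0). Alternatives were other pseudocounts, filters and scalings, no trend, fits on the compared groups, a replicate block, and each library left out in turn. Of the table's symbols, 99% matched names or synonyms of assembly GRCr8. Promoter windows came from RefSeq on that build, which is not the build of the counts, so no position was joined to a count.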

Additional observations from a re-analysis of the deposited data

Results flagged for a closer look

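The effects of both siRNAs on Ccnd1 did not add up on the log2 scale, and this departure was tested directly as the interaction. In log2 units the interaction was -1.19 (SE 0.153, limma adjusted p = 0.00524). It ran from -1.31 to -1.10, with an adjusted p of at most 0.0232, when each library was left out in turn. Ccnd1 was at 150%, 212% and 140% of the negative mean after Yap siRNA, Wwtr1 siRNA and both. Yap1 and Wwtr1 transcripts were themselves at 29.9% and 36.1% of the negative mean in the double knockdown, against 17.7% for Yap1 after Yap siRNA and 23.7% for Wwtr1 after Wwtr1 siRNA, and the part of these levels in the result was not tested. The difference from the single knockdown passed for Wwtr1 (log2 0.59, limma adjusted p = 0.00804) and did not pass for Yap1 (0.67, adjusted p = 0.0623). Yap1 was at 22.2% and Wwtr1 at 32.2% without double knockdown replicate 3. No test for single outlying values was run on these groups of 3 libraries.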

How the results depend on the processing

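Counts of the 9 genes called in the double knockdown against negative siRNA (4) stayed at 4 under each setting that left out no single library, and ran from 4 to 6 with each library left out. With a replicate block over all 12 libraries, 2 genes passed between Yap and Wwtr1 siRNA and 2 in the interaction, Cdkn2b being the addition in both. With the block over the 3 paired groups, 3 genes passed with Yap siRNA and 4 between Yap and Wwtr1 siRNA, while over all genes the calls with Yap siRNA went from 570 to 1904, with Wwtr1 siRNA from 1064 to 2527, and between both from 1044 to 2680. The same 9 libraries without the block, an alternative chosen after seeing the data, gave 675, 1315 and 1319. With each library left out in turn, counts ran from 0 to 1 (Yap siRNA) and from 1 to 2 (Wwtr1 siRNA) against negative siRNA. They ran from 1 to 2 in the double knockdown against Yap siRNA, from 1 to 4 against Wwtr1 siRNA, and from 0 to 1 between the single knockdowns. The interaction count stayed at 1. Signs turned for 3 values that had not passed the test, all in the double knockdown against negative siRNA: Cdkn1c (from -0.10 to 0.90), Cdkn2b (from -0.06 to 0.27) and Mdm2 (from -0.23 to 0.07). Among 59 single-gene values, the settings that left out no library gave 13 lost calls, 12 gained calls and 528 unchanged ones. Calls were lost with no trend for E2f1, Mcm5, Perp and Slc22a18 (double knockdown against negative siRNA) and Ccnd3 (against Wwtr1 siRNA). They were lost in fits on the compared groups for Cdc6, Cdkn3, Mcm5, Slc22a18 and Ccnd3 in the same comparisons, with upper-quartile scaling for Perp and Slc22a18, and with TMM scaling for Slc22a18, at adjusted p from 0.05 to 0.0703. Gained were 4 calls of Ccnd2 between the double knockdown and Wwtr1 siRNA (both scalings, a pseudocount of 10 and a minimum mean of 100), and all others came with a replicate block. The cause of these shifts was not tested. Without trend, calls over all genes went from 570 to 294 with Yap siRNA and from 122 to 60 for the interaction, and in fits on the compared groups alone from 1637 to 774 between the double knockdown and Yap siRNA. With the block over all 12 libraries they went from 570 to 874 and from 122 to 231. Planned count tests with edgeR and DESeq2 were not run. A rule that takes the lowest value of a library as 1 read did not recover whole reads. In 5 libraries that value is 2 steps, and in 1 more the step is close to 1. With the lowest value counted as 1 or 2 steps, whole steps were recovered in all 12 libraries. These were used for the TMM and upper-quartile scalings and for no count test. List counts with each library left out were added after seeing the data. Cdkn1c, with 165 normalized counts on average in the negative libraries, had the fewest counts there and the largest SE of the 9 genes. Its SE in the double knockdown against negative siRNA was 0.418, and 0.282 without double knockdown replicate 3. The part of depth in this was not tested.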
